A study of Mus musculus with 4 samples.

Results

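Proteins that coat, build or enlarge the lipid droplet were followed in visceral fat taken from beside the epididymis of C57BL/6J mice. The set was given by gene symbol and holds 10 genes: the perilipins Plin1, Plin2, Plin3, Plin4 and Plin5, the CIDE genes Cidec and Cideb, and Fitm1, Fitm2 and Bscl2, whose proteins lie in the endoplasmic reticulum. Of these 10, 9 had a named probe set on the Affymetrix mouse array, with 11 probe sets in all among 45101, and they are part of 18194 genes that were measured. Plin1 was not analysed here. Where a gene had more than 1 probe set, the one with the highest mean log2 signal over the 4 arrays stands for it and the other is given beside it.

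The mice had eaten a high-fat diet with 60% of energy as fat for 21 weeks, starting at 9 weeks of age. In the high-calcium whey group the diet held 1.8% calcium with whey protein isolate (2 arrays), and in the standard high-fat group it held 0.4% calcium (1 array). A further array carries no clear diet label. Its title shares wording with a label of high-calcium replicate 2, though not with that array's title, and ends in a sample number as the standard array's title does. As 2 profiled mice per diet are stated, this further array could be a control. It is called the array of open diet and its values are given without entering any comparison. Calcium and whey protein differ together between the diets, so they cannot be told apart, and the standard diet is represented by a single array.

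A fat cell stores triglyceride in a droplet made of a neutral lipid core under a phospholipid monolayer, and proteins on that surface decide which enzymes reach the lipid. Perilipins shield the droplet and recruit lipases on demand, CIDE proteins let droplets fuse and grow, and seipin and the FIT proteins act in the endoplasmic reticulum where droplets first form. In white fat the large single droplet depends above all on perilipin 1 and CIDEC, and loss of seipin causes a severe lack of fat tissue in humans.

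Signals are linear intensities as deposited, without a unit. Because probe sets bind with different strength, a probe set's signal, or a ratio of 2, is compared with itself on other arrays. Sums over listed genes are compared between arrays too and are weighted toward the brightest probe sets. Of the 9 genes measured, 8 were above the median signal of the array on all 3 arrays with a labelled diet, a level used here as background, and Fitm1 was under it on each of them. The arrays had median signals of 0.0963 and 0.0628 for high-calcium replicates 1 and 2 and of 0.0624 for the standard array. Markers of the labelled tissue were present: all 10 measured of 12 listed adipocyte genes were above background, with summed signals of 190 and 175 on the high-calcium arrays, 170 on the standard array and 161 on the array of open diet. Smooth muscle and B-cell genes set the high-calcium arrays apart from one another. The median log2 difference from the standard array was 2.82 on replicate 1 and -0.41 on replicate 2 for the 6 of 8 smooth muscle genes above background, and 2.47 and -0.46 for the 2 of 5 measured B-cell genes above it. It was -0.48 and -0.68 for 8 endothelial genes, 1.31 and 0.58 for 6 mesothelial genes, and 0.16 and 0.078 for the adipocyte genes. Both high-calcium arrays were lower in 7 of the 8 endothelial genes and higher in 5 of the 6 mesothelial genes. Of all genes, 23.9% were lower and 38.6% higher on both. In these endothelial and mesothelial lists the single standard array thus stood apart for most genes.

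Plin2, the perilipin that almost every cell makes when it stores lipid, had a signal of 13.6 on high-calcium replicate 1 and 16.3 on replicate 2, against 15.2 on the standard array, which lay between the 2. The array of open diet had 17.2. The mean log2 difference between the diets was -0.026 (SE 0.35), smaller than the gap of 0.27 between the 2 high-calcium mice, and its sign was turned by leaving out replicate 1 (0.11). Plin2 also coats the droplets of lipid-laden macrophages, and macrophage markers stood apart on the same replicate. Of 12 symbols on the macrophage list 11 were measured as separate genes, Emr1 being an older name of Adgre1, and all 11 were lower than on the standard array on replicate 1, with a median log2 difference of -1.04, against 0.097 on replicate 2. Their summed signal was 38.5 and 67.4 on the high-calcium arrays, 62.0 on the standard array and 66.2 on the array of open diet. All 11 were above background on the 3 labelled arrays. Their part in the Plin2 values was not tested, and in whole tissue fewer cells of a type and less RNA per cell cannot be told apart.

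Plin3, formerly TIP47, is a widely expressed perilipin that moves between the cytosol and young droplets. Its signal was 1.34 and 1.26 on the high-calcium arrays, against 1.04 on the standard array. Both high-calcium arrays were higher, by 29.3% and 21.8%, and the array of open diet had 1.23. Among the 8 members above background Plin3 had the largest positive log2 difference, 0.33 (SE 0.32). Its 95% interval ran from -0.86 to 1.52, which as a ratio is 0.549 to 2.87. The adjusted p from limma over all genes was 0.9999. With each array centred on its own median the difference shrank to 0.011, and replicate 1 then lay below the standard array at -0.25. Quantile normalization left the difference at 0.33. Centring on adipocyte markers gave 0.18, with 0.20 on replicate 1 and 0.16 on replicate 2.

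Plin4, known as S3-12, is a perilipin of white fat cells that coats small nascent droplets. It gave signals of 14.6 and 13.9 on the high-calcium arrays and 15.8 on the standard array. Both high-calcium arrays were lower, by 7.35% and 11.6%. The array of open diet was lower still at 12.7, so the standard array was the highest of the 4. The log2 difference of -0.14 (SE 0.32) was larger than the gap of 0.068 between the 2 high-calcium mice, but the 95% interval from -1.33 to 1.04 included 0 and the adjusted p from limma was 0.9999. Plin4 kept its negative sign in each of 9 other ways of processing the arrays, between -0.46 and -0.14. Most of these could not turn it. Plin4 has 1 probe set, so choices among probe sets left its difference unchanged, as did a filter on dim genes and limma with a trend. Centring on array medians or on adipocyte markers moved the difference of every gene down. Of the 10 adipocyte markers measured, 6 were higher on both high-calcium arrays and 1, Pparg, was lower on both. The shares over all genes were 38.6% and 23.9%.

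Plin5 is the perilipin of oxidative tissues such as heart and brown fat and tethers droplets to mitochondria. Its brighter probe set had 0.229 and 0.382 on the high-calcium arrays and 0.354 on the standard array, and the array of open diet had 0.360. Replicate 1 was the only low array. On its other probe set the high-calcium arrays had 0.153 and 0.199, the standard array 0.154 and the array of open diet 0.169. There replicate 1 equalled the standard array closely and replicate 2 was the highest. The probe sets thus disagreed in sign, with log2 differences of -0.26 (SE 0.52) and 0.18. Without replicate 1 the brighter one turned to 0.11. The brighter one belongs to a class that can bind transcripts of more than 1 gene. Plin5 lies next to Plin4 on the mouse chromosome, but unlike Plin4 neither of its probe sets was highest on the standard array. Of 7 measured of 8 listed brown fat genes, which share this oxidative setting, 5 were above background. Among these 5 both high-calcium arrays were lower in 3 and higher in 1, and the median log2 difference was -0.30. Of all 7, 5 were lower and 1 higher on both, with a median of -0.64. Over all genes, those under background included, the shares were 23.9% and 38.6%.

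**Figure D1:**
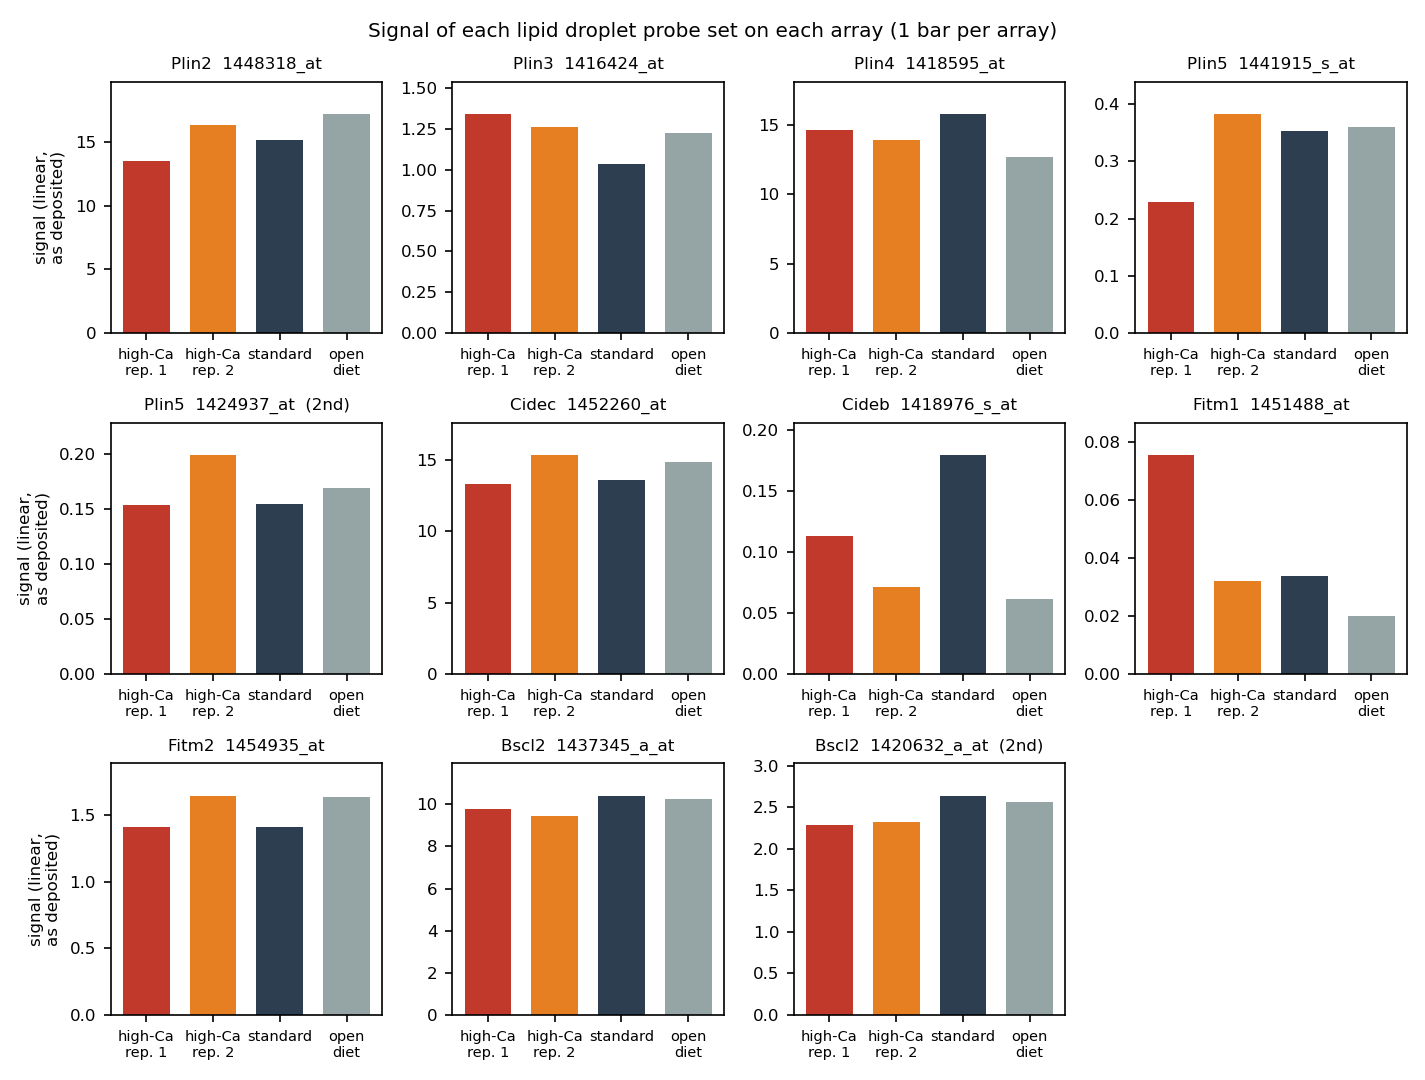
Each panel shows 1 probe set and each bar the linear signal of 1 array, as deposited, on an axis that starts at 0 and differs between panels; the second probe sets of Plin5 and Bscl2 are marked 2nd. Plin4 and both Bscl2 probe sets are highest on the standard array, Plin3 is lowest there, and Cideb stands out on the standard array at 0.179.

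Cidec, called FSP27 in mice, concentrates at contacts between droplets and drives their fusion into the single large droplet of white fat. It had signals of 13.3 and 15.3 on the high-calcium arrays and 13.6 on the standard array. The standard array lay between the 2, and the array of open diet had 14.8. The log2 difference of 0.072 (SE 0.34) was smaller than the gap of 0.20 between the high-calcium mice. Its sign turned without replicate 2 (-0.028), with each array centred on its median (-0.24) and with each array centred on its adipocyte markers (-0.074).

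Cideb, the CIDE protein of liver and small intestine that loads lipid onto lipoprotein particles, had the largest log2 difference of the members above background. Its signal was 0.113 and 0.0714 on the high-calcium arrays and 0.179 on the standard array, and 0.0611 on the array of open diet. The standard array was above the other 3. The log2 difference was -0.66 on replicate 1 and -1.33 on replicate 2, with a mean of -0.99 (SE 0.49), a 1.99-fold lower signal. The 95% interval ran from -2.81 to 0.82 and the adjusted p from limma was 0.9999. Signals on the high-calcium arrays were only 1.18 and 1.14 times the array median, against 2.87 times on the standard array. Its only probe set can bind transcripts of more than 1 gene, and the gene overlaps Nop9 and Ltb4r2 in the annotation. Quantile normalization narrowed the gap between the replicates, to -1.13 and -1.23, with an unadjusted p of 0.0446 and an adjusted p of 0.999999 from limma.

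Cidea, the CIDE gene of brown fat and not a member of the set, had signals of 0.195 and 0.161 on the high-calcium arrays, 0.415 on the standard array and 0.188 on the array of open diet. For Cidea as for Cideb the standard array was the highest of the 4, whereas for Cidec it was not. A gene of the ducts beside the epididymis, Adgrg2, was high on the standard array too, with 0.326 and 0.140 on the high-calcium arrays, 1.53 on the standard array and 0.209 on the array of open diet. Of 9 measured of 10 listed genes of testis, epididymis and ducts, 3 were above background on the labelled arrays. The summed signal of the 9 was 12.3 and 0.536 on the high-calcium arrays, 3.54 on the standard array and 0.405 on the array of open diet, but Defb42, which was not above background on all 3, made up 9.55 of the 12.3 on replicate 1. Without Defb42 the sums were 2.72 and 0.491 on the high-calcium arrays, 3.43 on the standard array and 0.382 on the array of open diet. The standard array was then the highest, but Adgrg2 alone made up 1.53 of its 3.43. Prm1 and Prm2, also above background, had 0.870 and 0.817 on replicate 1, against 0.813 and 0.609 on the standard array. On replicate 2 they had 0.165 and 0.0819. Both high-calcium arrays were lower in 2 of the 9 genes and higher in 1, where 23.9% and 38.6% of all genes were. The part of such tissue in the Cideb values was not tested.

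**Figure D2:**
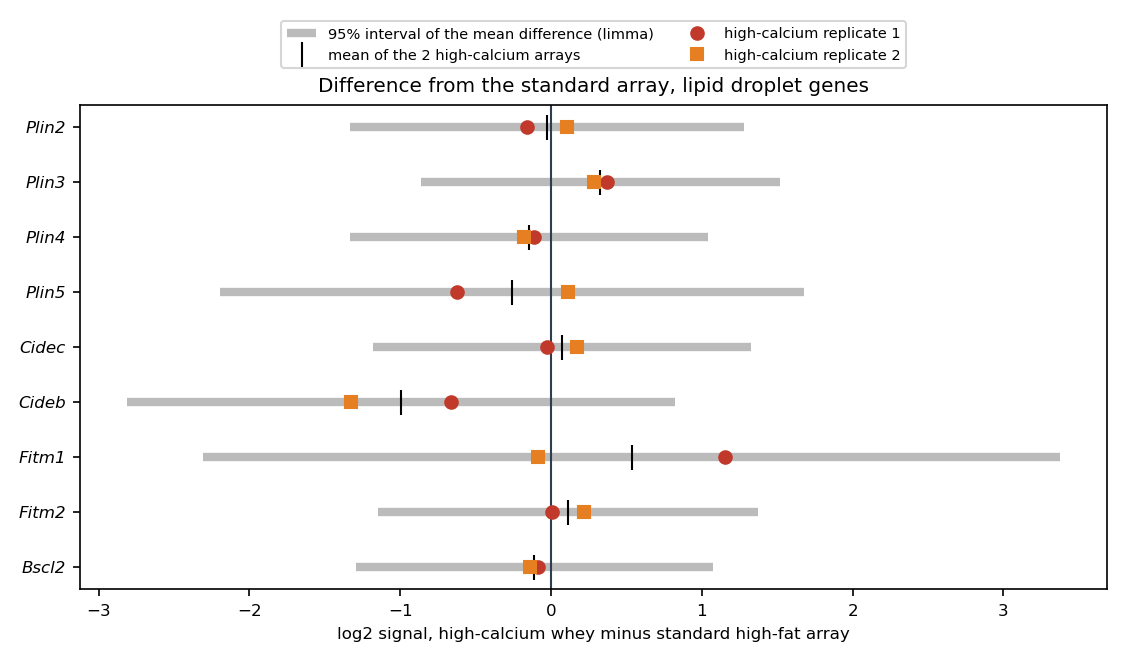
Points give the log2 signal of each high-calcium array minus the standard array, ticks their mean and grey bars the 95% interval of the mean from limma. Every interval spans 0; Plin3, Plin4, Cideb and Bscl2 have both points on 1 side by more than 0.05, and Fitm1, under background on each labelled array, gives no measured ratio.

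Fitm2 binds lipid in the endoplasmic reticulum and is needed for droplets to bud toward the cytosol. It had signals of 1.414 and 1.64 on the high-calcium arrays and 1.409 on the standard array, so that replicate 1 and the standard array were almost equal and replicate 2 was higher by 16.6%. The array of open diet, at 1.64, was close to replicate 2. The log2 difference of 0.11 (SE 0.34) was under the gap of 0.22 between the high-calcium mice. Centring on array medians turned it to -0.20 and centring on adipocyte markers to -0.033.

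Fitm1, the form known chiefly from skeletal muscle and heart, had 0.0756 and 0.0320 on the high-calcium arrays, 0.0339 on the standard array and 0.0199 on the array of open diet. These are 0.785, 0.509, 0.543 and 0.340 times the median of their arrays, so no ratio between diets is read from them. Replicate 1 had the highest value of the 4. Most skeletal muscle markers were highest there as well. Of 10 listed and measured, 9 were higher than on the standard array on replicate 1. Higher on both high-calcium arrays were 2, where 38.6% of all genes were. Their summed signal was 5.07 and 1.63 on the high-calcium arrays, 1.44 on the standard array and 1.46 on the array of open diet. Of these 10 genes 8 were not above background on all 3 labelled arrays. Among the 8 was Tnnc2, which alone made up 2.49 of the 5.07 on replicate 1. The median signal of replicate 1 was itself higher, at 0.0963 against 0.0624 on the standard array. Of the genes above background, Acta1 had 1.25 on replicate 1 against 0.544 on the standard array, whereas Pvalb had 0.344 against 0.572. The part of muscle RNA in the Fitm1 values was not tested.

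Bscl2 encodes seipin, which forms rings at the contact between the endoplasmic reticulum and the growing droplet. Its brighter probe set had 9.78 and 9.43 on the high-calcium arrays and 10.4 on the standard array, with 10.3 on the array of open diet. Both high-calcium arrays were lower, by 5.74% and 9.16%, and the array of open diet was close to the standard array. The other probe set gave the same order of groups, with 2.29 and 2.33 on the high-calcium arrays, 2.63 on the standard array and 2.56 on the array of open diet. Log2 differences were -0.11 (SE 0.32) and -0.19 on these probe sets. The difference on the brighter probe set exceeded the gap of 0.053 between the high-calcium mice, and only 8.27% of all genes had a smaller gap. The 95% interval from -1.30 to 1.07 included 0, with an adjusted p of 0.9999 from limma. Its sign stayed negative in 9 other ways of processing, between -0.43 and -0.11. Several of these could not turn it: both centrings moved every gene down, and the filter on dim genes and the trend left the difference as it was. Bscl2 overlaps Gng3 in the annotation. Beside Bscl2 and Cideb, Plin2 overlaps Gm12551, Plin4 overlaps Hdgfl2, Cidec overlaps Gm52871 and Fitm2 overlaps 2310001K24Rik.

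The windows around the transcription start of Plin3, Plin4 and Bscl2 are shown because these are the members well above background that lay on 1 side of the standard array by more than 0.05 on each high-calcium array. They come from RefSeq on GRCm38.p6, run from 250 bases before to 50 bases after the start, 5′ to 3′ along the gene, and carry in capitals the letters CCAAT or, on the other strand, ATTGG, the box known to bind the factor NF-Y. The windows lie at chr17:56290462-56290761 (minus strand) for Plin3, chr17:56109733-56110032 (minus strand) for Plin4 and chr19:8837217-8837516 (plus strand, the first of 3 windows of the gene) for Bscl2.
Plin3: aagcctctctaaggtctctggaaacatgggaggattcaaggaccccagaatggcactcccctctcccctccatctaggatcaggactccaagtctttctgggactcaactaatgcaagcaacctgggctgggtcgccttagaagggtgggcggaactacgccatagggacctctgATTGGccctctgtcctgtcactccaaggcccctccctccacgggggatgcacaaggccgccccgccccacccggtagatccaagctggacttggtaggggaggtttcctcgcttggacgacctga
Plin4: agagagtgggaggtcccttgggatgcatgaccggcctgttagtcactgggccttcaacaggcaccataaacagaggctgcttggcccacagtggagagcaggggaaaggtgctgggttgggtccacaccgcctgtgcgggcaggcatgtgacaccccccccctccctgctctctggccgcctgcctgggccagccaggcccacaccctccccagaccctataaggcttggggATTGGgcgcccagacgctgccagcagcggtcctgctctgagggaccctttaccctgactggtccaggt
Bscl2: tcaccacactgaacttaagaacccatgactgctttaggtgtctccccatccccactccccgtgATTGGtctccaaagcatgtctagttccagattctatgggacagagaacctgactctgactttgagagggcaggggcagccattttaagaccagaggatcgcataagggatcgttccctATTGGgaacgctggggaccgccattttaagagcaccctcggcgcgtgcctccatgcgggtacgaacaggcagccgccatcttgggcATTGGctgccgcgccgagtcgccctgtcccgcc

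All 10 genes had windows, 14 in number. CCAAT on either strand was found in 5 of the 14, those of Plin2, Plin3, Plin4, Plin5 and Bscl2, and in 37.4% of all 32851 windows of this length. The PPAR half-site AGGTCA, on either strand, was found in 4 windows, of Plin2, Plin5 and Bscl2, and in 16.3% of all. TATAAA was searched for as well and was found in 1 window, of Cideb, and in 13.6% of all. The CCAAT box was about as frequent among the members as over all windows, so it does not set them apart. It is present in Plin3, which was higher on both high-calcium arrays, and in Plin4 and Bscl2, which were lower.

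Taken over the set, the members showed no common direction. Of the 9 measured, 3 were lower on both high-calcium arrays (Plin4, Cideb and Bscl2), where 23.9% of all genes showed that order, and 2 were higher on both (Plin3 and Fitm2, the second by only 0.0051 on replicate 1), where 38.6% of all genes were. With replicate 2 left out 6 members were lower and 3 higher, and with replicate 1 left out 4 were lower and 5 higher. The share of all genes was not counted for 1 array alone. On replicate 1 the median log2 difference was -0.085 for the members and 0.19 for all genes. It was 0.11 and 0.013 on replicate 2. For 4 members the standard array lay between the high-calcium arrays, as for 37.5% of all genes. In 5 members the gap between the 2 high-calcium mice exceeded the difference between the diets, as in 59.8% of all genes. The median log2 difference of the members was -0.026 and that of all genes 0.079. These counts include Fitm1, which was under background. Among the 8 members above background 3 were lower on both, 2 higher on both and 3 split, with a median of -0.069. The counts over both high-calcium arrays were close to the shares of all genes and do not set the members apart.

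No member passed limma's test (two-sided, Benjamini-Hochberg over 18194 genes), and 0% of all genes did. At an unadjusted p under 0.05 there were 0 members, against 4.94% of all genes. When limma was run with a trend and robustly, 6 genes passed, 0 of them members. The spread rests on 2 arrays with 1 residual degree of freedom, and differences of the size seen here could not be detected with it.

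The scale of the arrays bore on each small difference. Centring on array medians moved the median of all genes to -0.24, against 0.079 as deposited, and moved every member down by the same amount. Relative to the median of all genes, Plin4 stood at -0.22, Bscl2 at -0.19, Plin2 at -0.10, Cidec at -0.0068 and Plin3 at 0.25. After centring, 3 members were lower on both high-calcium arrays and 0 were higher on both, where 38.8% and 20.4% of all genes were. After centring on adipocyte markers the counts were 5 and 1, where 37.1% and 27.7% of all genes were. Ratios between members within an array do not depend on its scale. The log2 ratio of Plin4 to Bscl2 was 0.58 and 0.56 on the high-calcium arrays and 0.60 on the standard array, and the array of open diet had 0.30. The log2 ratio of Plin3 to Bscl2 was -2.87 and -2.90 on the high-calcium arrays, -3.32 on the standard array and -3.06 on the array of open diet. That of Plin4 to Plin2 was 0.11 and -0.23 on the high-calcium arrays, 0.056 on the standard array and -0.44 on the array of open diet.

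**Figure D3:**
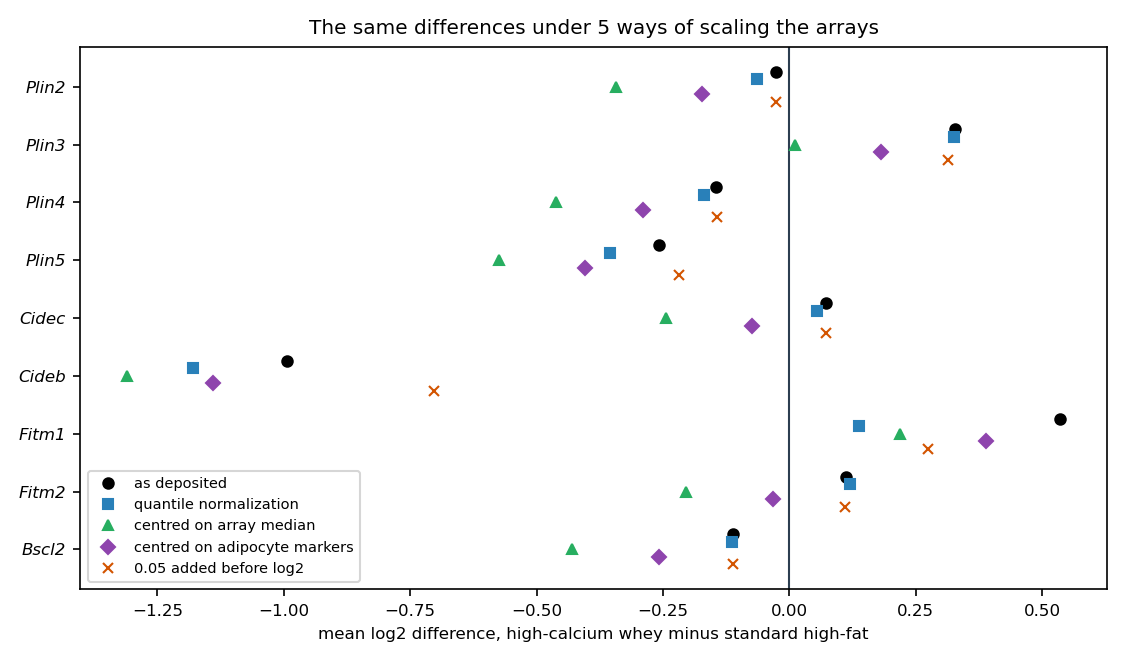
Symbols give the mean log2 difference, high-calcium whey minus standard high-fat, of each gene under 5 scalings of the arrays. Plin4, Cideb and Bscl2 stay below 0 and Plin3 above 0 under all 5, whereas Cidec and Fitm2 lie on both sides.

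Genes that act with the members on the droplet were counted from lists. Of 7 lipolysis genes, all above background, 2 lay below the standard array on both high-calcium arrays and 3 lay above it on both. Of all genes, 23.9% lay below and 38.6% above. The median log2 difference of the 7 was -0.044. Abhd5, the lipase co-activator that perilipin 1 holds on the droplet, had signals of 1.65 and 2.21 on the high-calcium arrays and 2.22 on the standard array. Pnpla2, the triglyceride lipase that Abhd5 activates, had 7.09 and 8.92 on the high-calcium arrays and 6.86 on the standard array. Lipe, hormone-sensitive lipase, had 3.99 and 4.46 on high-calcium arrays and 3.70 on the standard array. G0s2, an inhibitor of Pnpla2, had 7.94 and 6.50 on high-calcium arrays and 8.02 on the standard array. As deposited, values of both lipases were higher on both high-calcium arrays. The log2 differences on replicates 1 and 2 were 0.047 and 0.38 for Pnpla2 and 0.11 and 0.27 for Lipe. Pnpla2 was thus close to the standard array on replicate 1, and both centrings moved every gene down. Abhd5 was lower by a log2 difference of -0.43 on replicate 1 but only -0.0050 on replicate 2, and G0s2 by -0.30 on replicate 2 but only -0.016 on replicate 1, so each was close to the standard array on 1 replicate. The adjusted p from limma was 0.9999 for each of the 4.

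In triglyceride synthesis, with 11 of 12 listed genes measured, 2 were lower and 5 higher on both high-calcium arrays. Of all genes, 23.9% were lower and 38.6% higher on both. The median of the 11 was 0.028. Agpat1, an acyltransferase of phosphatidic acid synthesis, differed by 0.66 (SE 0.44), Acsl3, an acyl-CoA synthetase found on young droplets, by -0.42 (SE 0.40) and Gpat4, a glycerol phosphate acyltransferase, by 0.33 (SE 0.33). Among 18 measured of 19 listed other droplet proteins 7 were lower and 7 higher on both, and the median was 0.075. Cidea led these at -1.23 (SE 0.35), followed by Mettl7b at -0.43 (SE 0.40) and Mettl7a1 at -0.42 (SE 0.35), methyltransferase-like proteins of the droplet surface. Of 12 transcription factors that act on perilipin and CIDE genes 10 were above background. Of these 10, 5 were lower and 0 higher on both, and of all 12, 5 were lower and 1 higher. The shares over all genes, those under background included, were 23.9% and 38.6%. The median of the 10 was -0.11, against -0.046 over all 12. The coactivators Ppargc1a and Ppargc1b differed by -0.30 (SE 0.43) and -0.21 (SE 0.39) and Hif1a, the hypoxia factor, by -0.23 (SE 0.32). In these 4 lists 0 genes passed limma's test and 0 had an unadjusted p under 0.05.

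**Figure D4:**
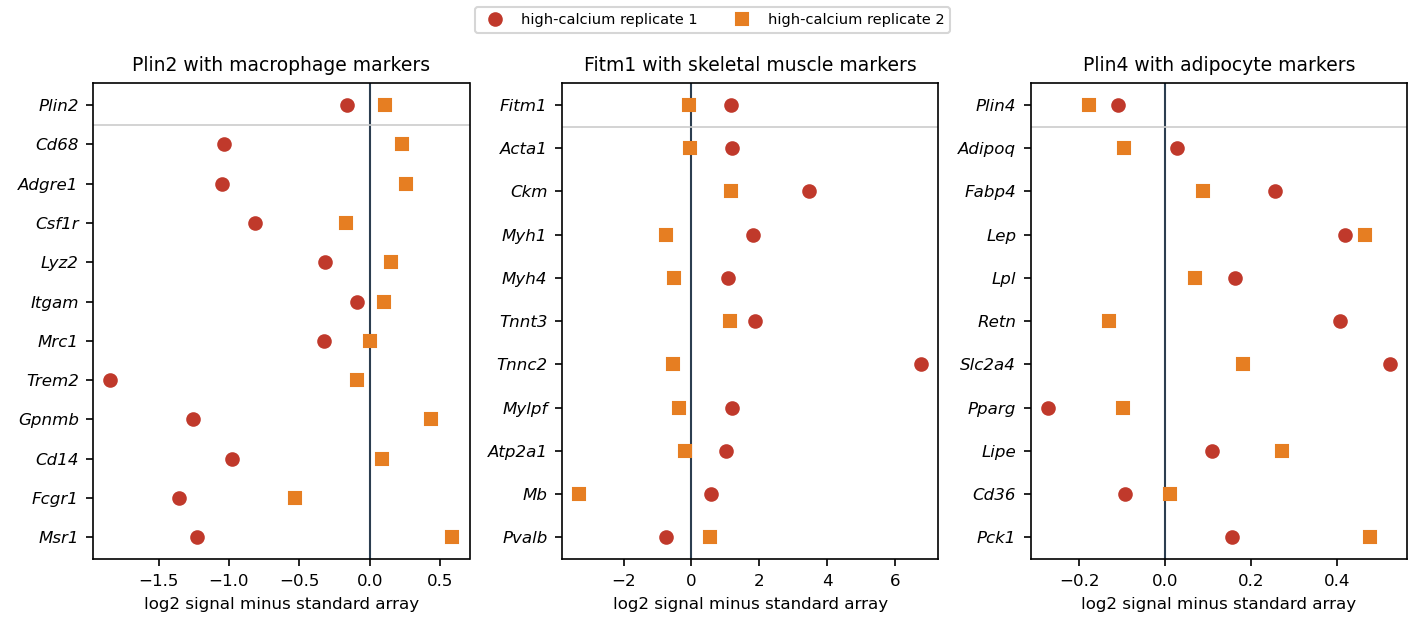
Circles and squares give the log2 signal of high-calcium replicates 1 and 2 minus the standard array, for Plin2 above macrophage markers, Fitm1 above skeletal muscle markers and Plin4 above adipocyte markers; the horizontal axes differ. Macrophage markers are all below 0 on replicate 1, and 9 of 10 skeletal muscle markers are above 0 there.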

How the data were processed

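Total RNA of epididymal fat was labelled with biotin and read on 4 Affymetrix mouse arrays. The authors deposited intensities on a linear scale for 45101 probe sets. The submitters' processing notes name RMA without a version, but the values are not log2, and the scaling of each array is not stated in the sources used here. The lowest deposited value of each array is its median divided by 100.

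Values were converted to log2 with nothing added. The platform annotation gave 1 gene symbol to 34958 probe sets, several to 932 and none to 9211, and 34754 of them were found in RefSeq by gene identifier. A gene's value is that of its brightest probe set by mean log2 over 4 arrays, and other probe sets were fitted in a table of all probe sets. The diets were compared with limma 3.58.1 (lmFit, eBayes; R 4.3.3) on 2 high-calcium arrays and 1 standard array, with 2.38 degrees of freedom after moderation, an adjusted p threshold of 0.05 and 95% intervals. The number of arrays limits the precision, p-values measure only the spread between these arrays, and the standard array is assumed to vary like the others.

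Tested on simulated data with 200 of 18194 genes changed, the fit called 100% of genes changed by 1 log2 unit at an SD of 0.1, and 0% with the spread seen here. The members, gene lists and the background level were chosen with earlier results of these data known. All members are named; of each list of droplet, lipase, synthesis and transcription factor genes, up to 3 members above background are named by size, plus genes whose proteins bind a member. Cell type lists are given by counts and sums. Alternatives were quantile normalization, centring on array medians or, added later, on adipocyte markers, the mean of all probe sets, the choice of probe set over 3 arrays, omission of probe sets able to share transcripts, an added constant of 0.05, a filter on dim genes, limma with a trend, and either high-calcium array left out. Plots were made in matplotlib 3.10.9 with Python 3.11.15.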

Additional observations from a re-analysis of the deposited data

How the results depend on the processing

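Over 79 values of the members' differences under 9 other settings 5 changed sign, and 4 of 18 did so when a high-calcium array was left out. Many of the 79 could not change sign. Choices among probe sets do not alter a gene with 1 probe set, and the filter and the trend leave each difference as it was. Both centrings move every gene down, so they could turn only positive signs. Plin5 turned to 0.18 once probe sets able to share transcripts were left out. Cidec turned to -0.24 and Fitm2 to -0.20 on median-centred arrays, and to -0.074 and -0.033 on arrays centred on adipocyte markers, a setting chosen after the data had been seen. Leaving out each high-calcium array in turn gave 0.11 and -0.16 for Plin2, 0.11 and -0.63 for Plin5, and 0.17 and -0.028 for Cidec, the first value being that without replicate 1. For Fitm1, which was under background and gives no measured ratio, the fitted values were -0.084 and 1.16. The members lower on both high-calcium arrays numbered 3, against 5 after centring on adipocyte markers and 2 without probe sets able to share transcripts. With a single high-calcium array 4 to 6 were lower, a count that cannot fall below 3 because only 1 array has to be lower. Those higher on both numbered 2, against 0 on median-centred arrays and 1 after centring on adipocyte markers. With a single array 3 to 5 were higher, a count that for the same reason cannot fall below 2. limma called 0 genes as deposited, 96 on median-centred arrays and 6 with a trend and robust estimation, with 0 members each time; the cause was not tested. Fitm1 had no value with the filter on dim genes and Cideb none without its shared probe set. No paired analysis was possible because the standard array carries no replicate number and is the only one of its group.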
